A study of Rattus norvegicus with 26 samples.

Results

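Primary rat hepatocytes exposed to 10 or 100 pM TCDD (2,3,7,8-tetrachlorodibenzo-p-dioxin) for 48 h were compared with a low-dose baseline, to find which genes had already changed at these doses. The columns were picked by the dose and pool in their labels. They comprise 7 of the 26 arrays of the series, 3 at 10 and 100 pM and 4 of the baseline. The series screened RNA from cultured hepatocytes of female Sprague Dawley rats (Crl:CD(SD)IGS BR) on oligonucleotide arrays over a range of TCDD and PCB 126 doses. Cells came from 2 pools of 3 rats, with 11 arrays of pool 1 and 15 of pool 2. The 10 pM group is 1 array, from pool 2. The 100 pM group is 2 arrays, 1 from each pool. The baseline joins 2 arrays at 0.01 pM TCDD and 2 arrays of vehicle alone, 1 of each pool in both cases. All cultures, treated or not, received 0.5% DMSO, the vehicle. Each pool mixes the cells of several animals, and each pool gave 1 culture per dose here, so the p-values measure the spread between these arrays and not between animals.

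TCDD acts through AhR, the aryl hydrocarbon receptor, which waits in the cytosol bound to HSP90 until a ligand docks and then works as a transcription factor. The bound receptor enters the nucleus, pairs with ARNT and binds DNA elements with the core GCGTG near its target genes. In liver the best known targets are the cytochrome P450 genes of the Cyp1 family and a set of conjugating and reducing enzymes, together called the AhR gene battery. Hepatocytes kept in culture also tend to gain actin and other cytoskeletal transcripts as they lose liver-specific ones.

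The sequences before the start sites of 4 of the genes that changed are shown, because 3 of them hold the AhR core or its reverse complement CACGC and the other belongs to the contractile genes that fell. Each runs 5′ to 3′ on the gene's strand over the 250 bases before the RefSeq transcript start in build GRCr8. Capitals mark the core in the first 3, and a CArG box, the element bound by serum response factor, in Acta1.
Cyp1b1, chr6:21094315-21094564, plus strand: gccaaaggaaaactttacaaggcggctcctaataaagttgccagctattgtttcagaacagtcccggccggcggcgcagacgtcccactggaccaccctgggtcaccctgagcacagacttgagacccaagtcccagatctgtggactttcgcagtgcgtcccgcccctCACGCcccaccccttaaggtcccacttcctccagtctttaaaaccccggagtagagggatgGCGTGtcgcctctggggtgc
Nqo1, chr19:52220268-52220517, minus strand: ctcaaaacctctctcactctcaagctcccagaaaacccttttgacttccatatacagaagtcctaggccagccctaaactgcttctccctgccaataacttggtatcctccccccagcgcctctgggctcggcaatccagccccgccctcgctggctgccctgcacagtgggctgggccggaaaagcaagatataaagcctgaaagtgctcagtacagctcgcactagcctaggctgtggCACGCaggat
Mettl7b, chr7:1975981-1976230, minus strand: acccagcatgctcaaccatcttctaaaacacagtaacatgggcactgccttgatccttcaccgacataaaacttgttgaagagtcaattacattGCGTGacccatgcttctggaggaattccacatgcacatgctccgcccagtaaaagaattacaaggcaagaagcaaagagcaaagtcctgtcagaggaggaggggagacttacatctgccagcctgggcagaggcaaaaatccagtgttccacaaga
Acta1, chr19:68784195-68784444, minus strand: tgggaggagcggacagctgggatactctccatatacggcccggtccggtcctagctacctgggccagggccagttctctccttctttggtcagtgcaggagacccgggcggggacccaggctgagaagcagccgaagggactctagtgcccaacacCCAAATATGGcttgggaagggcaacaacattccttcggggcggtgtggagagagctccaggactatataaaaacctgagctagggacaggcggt
Cyp1b1 holds the core in both orientations, starting 81 and 20 bases before the start. The core starts 10 bases before the start in Nqo1 and 156 bases before it in Mettl7b, and the CArG box of Acta1 starts 94 bases before it. Over 33469 rat windows of this length, 25.9% held GCGTG on either strand, 4.09% held the longer TNGCGTG, which contains it, and 1.5% held a CArG box. Of the 9 genes with a probe set that rose, 7 had a window, and 3 of these held the core (Cyp1b1, Nqo1 and Mettl7b). Of the 10 genes with a probe set that fell, 6 had a window, 1 with the core (Slc37a4) and 1 with a CArG box. A match is a description of these letters and not evidence of binding. The CArG search was added after the values were seen.

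The values are log2 expression values as deposited, from -1.43 to 15.01. A probe set was tested if it exceeded the median of all values, 3.71, on at least 3 of the 7 arrays, which kept 4877 of the 8740 probe sets that are not controls. The 9 measured hepatocyte markers averaged 10.7 to 11.1 on the pM arrays and 10.9 to 11.2 on the baseline arrays, so the label of hepatocytes matched the transcripts. Markers of Kupffer cells (7 measured, Ccl2 among them) averaged 5.32 to 5.79 on the pM arrays and 5.07 to 5.65 at baseline. Markers of endothelial cells (3) averaged 3.66 to 4.87 on the pM arrays and 3.51 to 4.4 at baseline. Those of cholangiocytes (4) averaged 4.72 to 5.49 on the pM arrays and 4.58 to 5.79 at baseline. In bulk RNA, fewer cells of a type and less RNA per cell cannot be told apart.

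**Figure D1:**
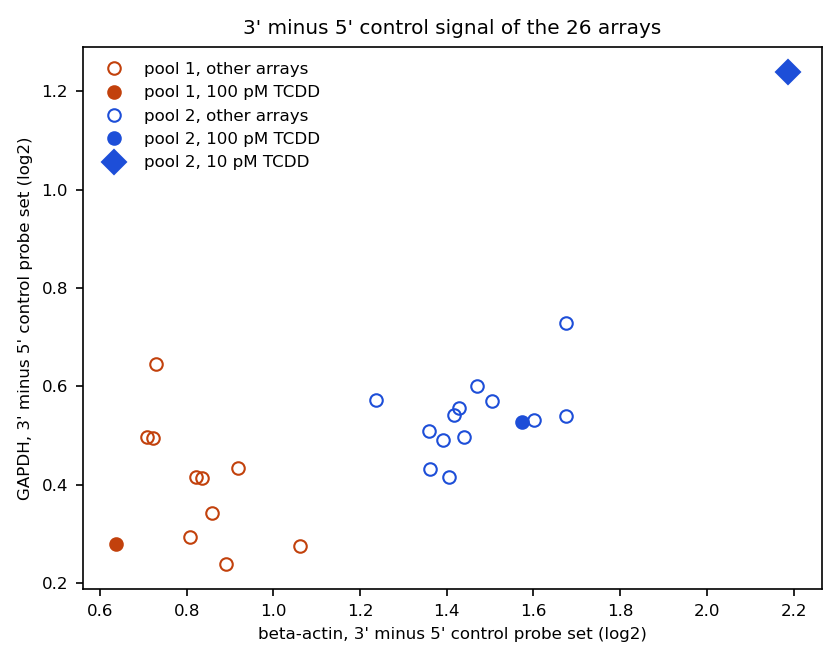
Difference between the 3′ and 5′ control probe sets of beta-actin (x axis, log2) and GAPDH (y axis, log2) on all 26 arrays, with the 10 pM TCDD array as a diamond, the 100 pM arrays as filled circles and the other arrays as open circles. The 10 pM array lies at 2.19 and 1.24, beyond all the others, while pools 1 and 2 form separate clouds.

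The 10 pM array stood apart on beta-actin and GAPDH before any test. It had the largest difference between the 3′ and 5′ ends of beta-actin, 2.19, against 1.24 to 1.68 on the other 14 arrays of pool 2, and of GAPDH, 1.24 against 0.416 to 0.729. A larger difference means less signal from the 5′ end of the message, a common sign of shortened RNA or incomplete labelling. For hexokinase the same difference was not raised on the 10 pM array, at -0.37 against -0.387 to -0.123 on the others of pool 2. The hexokinase difference was below 0 on every array, from -0.548 to -0.268 in pool 1, while those of actin and GAPDH were above 0. No conclusion on the RNA of the 10 pM array is drawn from it. The 100 pM array of pool 1 had the lowest mean correlation with the other arrays of its pool, 0.945, where the highest was 0.973. The 0.01 pM array of pool 2, a baseline array, had a Cyp1a1 value of 5.66, against 3.28 in the vehicle array of that pool. The 5S rRNA control was 3.95 on the 1 pM-range array of pool 1 and averaged 3.92 on those of pool 2, against 4.63 and 4.73 on the baseline arrays. In pool 1 the 0.01 pM array had 3.98 and the vehicle array 5.28. This control ran from 2.02 to 5.82 over all arrays of pool 1, so these gaps lie within its spread there. The part of these differences in the results was not tested, except where a fit without the array or with the actin difference as a covariate is given.

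At 10 and 100 pM, 30 of 4877 probe sets changed at an adjusted p below 0.05 in limma with the pool as a block, which is 0.615% of those tested. Of these, 17 rose (0.349%) and 13 fell (0.267%), and 962 had an unadjusted p below 0.05. On all 30 the pM arrays lay beyond both baseline arrays of their own pool. Over all tested probe sets 19.7% had every pM array above and 11.9% had every pM array below. An exact permutation of the arrays within pools has 18 arrangements and cannot give a two-sided p below 0.111. The count moved with single arrays. Leaving out the vehicle array left 2 calls (pool 1) or 0 (pool 2). Leaving out the 0.01 pM array left 13 (pool 1) or 9 (pool 2), and leaving out the 100 pM array left 12 (pool 1) or 7 (pool 2). The fit that omits the 10 pM array gave 39 (0.8%), with 24 higher and 15 lower, and 22 of the 30 were called again. With the actin 3′ to 5′ difference as a covariate it was 46, and 28 of the 30 were called again.

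The 30 probe sets covered 19 named genes, and 5 of the 30 name several genes or none here. These 5 differed by 7.37, 3.39, 1.58, -1.3 and -3.32, and so include some of the largest changes. They are in none of the gene list counts below, so a list member measured by one of them was not counted. With each gene taken by its brightest probe set, 8 of 2877 genes rose (0.278%) and 7 fell (0.243%), with the values on each array in the plot of the 15 genes. The genes that rose were the P450s Cyp1a1, Cyp1a2 and Cyp1b1, the quinone reductase Nqo1, the cyclic AMP phosphodiesterase Pde4b, the monocyte chemoattractant Ccl2, the paraoxonase Pon1 and the siderophore-binding acute phase protein Lcn2. The genes that fell were skeletal alpha-actin (Acta1), the myosin light chain Myl9, the muscle ankyrin repeat protein Ankrd1, gamma-synuclein (Sncg), the calcium channel subunit Orai1, the glucose-6-phosphate transporter Slc37a4 and the collagen chaperone Serpinh1. Probe sets of the Cyp1a and actin families can bind near-identical transcripts, so a value may include a paralog.

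**Figure D2:**
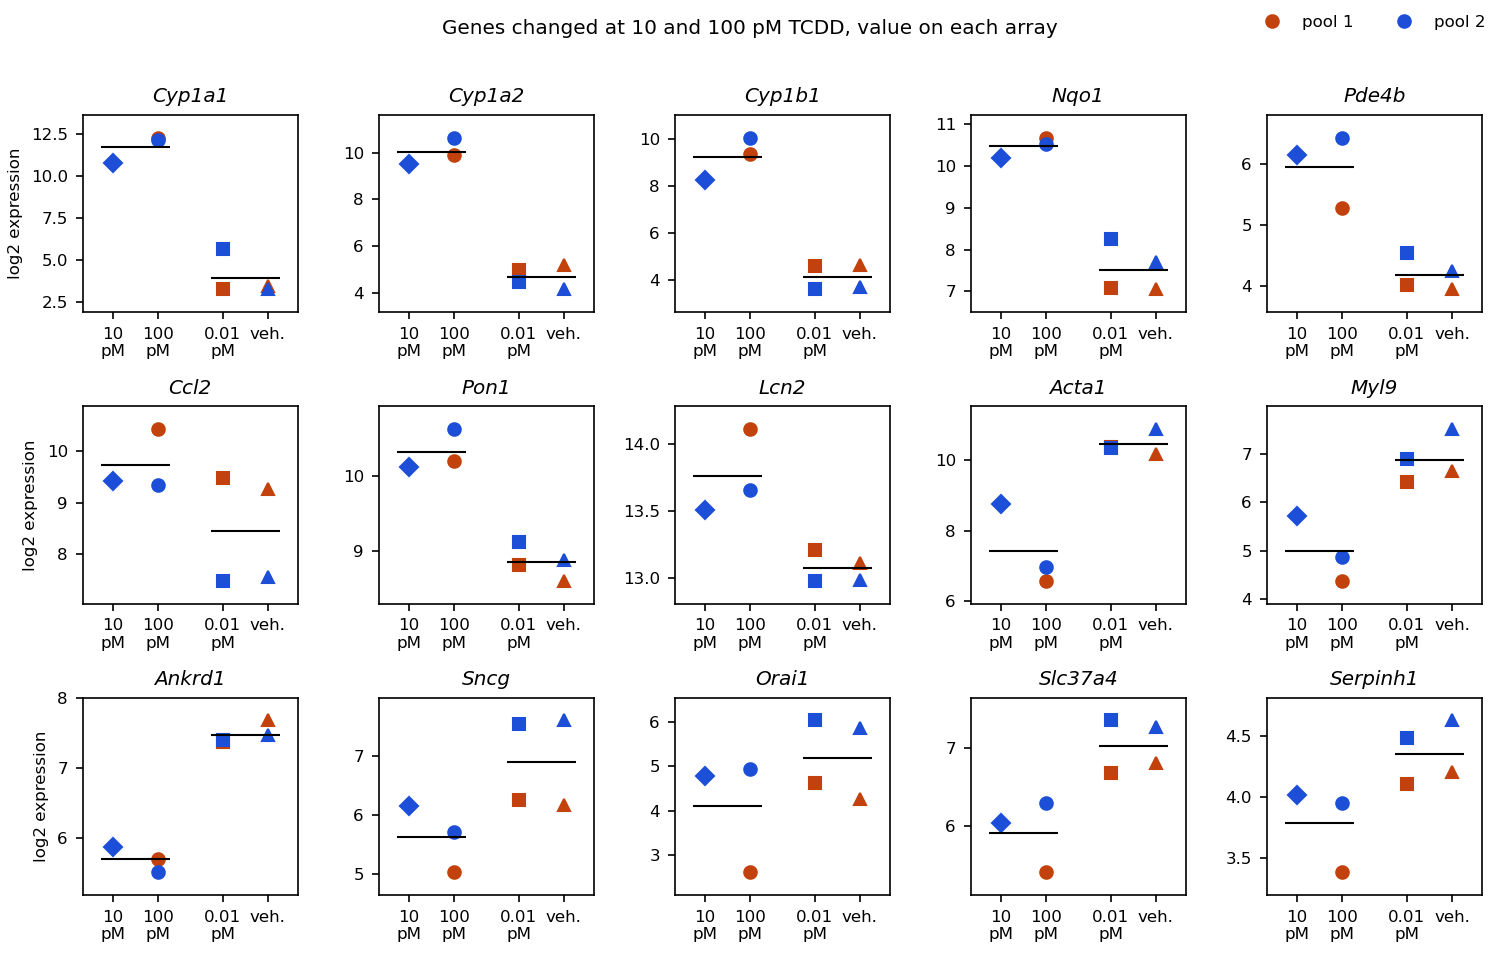
Log2 expression (y axis) of the 15 genes that changed, on each of the 7 arrays (x axis, 10 and 100 pM TCDD left, 0.01 pM TCDD and vehicle right), with pool 1 in orange, pool 2 in blue and a line at the mean of each side. Within each pool every pM value lies beyond both baseline values, while for Ccl2, Orai1 and others the pools differ in level.

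The Cyp1 genes gave the largest differences. Cyp1a1 had a log2 value of 10.77 at 10 pM (pool 2) and 12.29 and 12.16 at 100 pM (pools 1 and 2), against 3.33 and 5.66 at 0.01 pM and 3.45 and 3.28 with vehicle. The difference, pM minus baseline, was 7.76 ± 0.69 (SE, n = 3 and 4 arrays), a 216-fold rise (limma adjusted p = 0.00827). The groups did not overlap, and the lowest pM value was the 10 pM one. Cyp1a2, its paralog that is abundant in liver, had 9.51 at 10 pM and 9.90 and 10.64 at 100 pM, against 4.97 and 4.45 at 0.01 pM and 5.17 and 4.14 with vehicle. It rose by 5.40 ± 0.35 (limma adjusted p = 0.00395), and its other probe sets rose by 6.57 and 6.07. Cyp1b1, which oxidises oestrogens and aromatic hydrocarbons, had 8.27 at 10 pM and 9.37 and 10.07 at 100 pM, against 4.63 and 3.61 at 0.01 pM and 4.66 and 3.70 with vehicle. It rose by 5.20 ± 0.43 (limma adjusted p = 0.00724), and its other tested probe sets by 4.48 and 5.67.

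Among the remaining battery members, Nqo1 had 10.19 at 10 pM and 10.67 and 10.52 at 100 pM, against 7.08 and 8.25 at 0.01 pM and 7.05 and 7.70 with vehicle. Nqo1 rose by 2.87 ± 0.31 (limma adjusted p = 0.0164), with every pM value above every baseline value. Aldh3a1, an aldehyde dehydrogenase, had 5.33 at 10 pM and 5.37 and 8.10 at 100 pM, against 2.21 and 3.21 at 0.01 pM and 2.30 and 2.45 with vehicle. Its difference of 3.58 ± 0.61 did not pass the threshold (limma adjusted p = 0.0756), although its groups did not overlap. Without the 10 pM array the Aldh3a1 difference was 4.19 ± 0.48 (limma adjusted p = 0.0246). The redox regulator Nfe2l2, the UDP-glucose dehydrogenase Ugdh and the glutathione transferase Gsta1 differed by 0.50 ± 0.23, 0.49 ± 0.24 and 0.08 ± 0.20, and none passed. Of 12 battery genes on the list 8 were measured, 4 rose and 0 fell. Their median difference was 3.23, against -0.01 over the 2877 genes. Another 2 battery genes stand only on probe sets shared by several genes and are not in these counts.

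The receptor and its partners did not pass the test. Of the 11 pathway components 5 were measured, with a median difference of 0.11. Ahr itself differed by 0.28 ± 0.20 and Arnt by 0.05 ± 0.09. The chaperone Hsp90ab1 differed by -0.43 ± 0.12 (limma adjusted p = 0.233), and its other probe sets by -0.13, -0.59 and 0.08 without passing.

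Of the inflammation genes, Ccl2 and Lcn2 rose. Ccl2 had 9.42 at 10 pM and 10.42 and 9.35 at 100 pM, against 9.48 and 7.49 at 0.01 pM and 9.27 and 7.55 with vehicle. The groups overlap when the pools are ignored, and separate within each pool. Ccl2 rose by 1.53 ± 0.22 with the pool as a block (limma adjusted p = 0.0419), and by brightest probe set differed by 1.43 ± 0.23 without the 10 pM array (adjusted p = 0.0704). Its other probe set rose by 1.45 ± 0.18, and by 1.46 ± 0.19 without the 10 pM array (limma adjusted p = 0.0259 and 0.038). Lcn2 had 13.51 at 10 pM and 14.11 and 13.66 at 100 pM, against 13.21 and 12.98 at 0.01 pM and 13.12 and 12.99 with vehicle. Lcn2 rose by 0.74 ± 0.11 (limma adjusted p = 0.0422), the smallest change among the genes that rose. Of 14 measured chemokine and inflammation genes 1 rose and 0 fell, and 6 were higher at an unadjusted p below 0.05, where 10.3% of all genes were. Among those that did not pass were the chemokine Ccl20, with a difference of 0.81 ± 0.25, and the prostaglandin synthase Ptgs2, with 0.23 ± 0.07. The list's median was 0.21. Macrophages also express Ccl2. Of the 7 measured macrophage markers 5 were higher, Ccl2 itself among them, and 2 lower on the pM arrays. Their part in the rise of Ccl2 was not tested.

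Pde4b and Pon1 were higher on the pM arrays of both pools. Pde4b had 6.15 at 10 pM and 5.28 and 6.43 at 100 pM, against 4.03 and 4.54 at 0.01 pM and 3.95 and 4.25 with vehicle. It rose by 1.66 ± 0.18 (limma adjusted p = 0.0164), but its other probe sets differed by 0.35, 0.64 and -0.01 and did not pass. Pon1 had 10.11 at 10 pM and 10.21 and 10.63 at 100 pM, against 8.81 and 9.12 at 0.01 pM and 8.61 and 8.88 with vehicle. Pon1 rose by 1.42 ± 0.19 (limma adjusted p = 0.0385), and its other probe sets differed by 1.1 and 1.18 without passing. Mettl7b, a methyltransferase-like protein, rose by 1.39 ± 0.20 on 1 probe set (limma adjusted p = 0.0419), while its brightest probe set did not pass. Mettl7b, and likewise Lox, Tagln and Slc15a1, were called on a probe set that is not the gene's brightest, and are named after their values were seen.

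By brightest probe set, the largest decreases that passed were those of Acta1, Myl9 and Ankrd1. Acta1 and Myl9 encode proteins of the contractile apparatus, and Ankrd1 the muscle ankyrin repeat protein. Acta1 had 8.75 at 10 pM and 6.58 and 6.96 at 100 pM, against 10.37 and 10.34 at 0.01 pM and 10.16 and 10.87 with vehicle. Acta1 fell by 3.12 ± 0.45 on the log2 scale (limma adjusted p = 0.0419), with the 10 pM value nearest to the baseline. Myl9 had 5.72 at 10 pM and 4.38 and 4.86 at 100 pM, against 6.43 and 6.89 at 0.01 pM and 6.65 and 7.51 with vehicle. Myl9 fell by 2.01 ± 0.28 (limma adjusted p = 0.0406), and its other probe set differed by -1.55 without passing. Ankrd1 had 5.87 at 10 pM and 5.71 and 5.51 at 100 pM, against 7.37 and 7.4 at 0.01 pM and 7.68 and 7.47 with vehicle. Ankrd1 fell by 1.77 ± 0.20 (limma adjusted p = 0.0164), and its 3 pM values lay close together.

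The actin-binding protein transgelin (Tagln) had 9.07 at 10 pM and 6.78 and 7.73 at 100 pM, against 10.66 and 10.96 at 0.01 pM and 10.37 and 11.12 with vehicle, on the probe set that fell. That probe set fell by 3.08 ± 0.38 (limma adjusted p = 0.0259), and the brightest Tagln probe set differed by -2.47 ± 0.47 (adjusted p = 0.105). Lox, the lysyl oxidase that crosslinks collagen, had 4.44 at 10 pM and 3.11 and 4.19 at 100 pM, against 5.66 and 7.44 at 0.01 pM and 6.0 and 7.80 with vehicle. Lox fell by 3.07 ± 0.21 on that probe set (limma adjusted p = 0.00395). The collagen chaperone Serpinh1 had 4.01 at 10 pM and 3.38 and 3.95 at 100 pM, against 4.11 and 4.48 at 0.01 pM and 4.21 and 4.63 with vehicle. Serpinh1 fell by 0.65 ± 0.08 (limma adjusted p = 0.0271), with its pM values near the median of all values, 3.71. With 10 nM Serpinh1 had 4.19 in pool 1, within the baseline values of that pool, and 3.97 in pool 2, below them.

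Of 23 measured genes of the cytoskeleton and dedifferentiation list 0 rose and 2 fell, Acta1 and Myl9. At an unadjusted p below 0.05, 12 of the 23 were lower, where 8.69% of all genes were. On 15 of the 23 every pM array lay below the baseline arrays of its pool, where 12.5% of all genes did. The list's median difference was -0.41, and -0.32 after each array was centred on its median. The members that did not pass include annexin A2 (Anxa2, -0.46 ± 0.10). Chosen after their values were seen, the myosin light chain Myl6 differed by -0.91 ± 0.25, tropomyosin Tpm1 by -0.47 ± 0.12, beta-actin (Actb) by -0.30 ± 0.08 and vimentin (Vim) by -0.17 ± 0.27. Without the 10 pM array 3 of the 23 fell, Tagln with the other 2. Stellate cells and fibroblasts also express Tagln and Acta2, which stand on the marker list too. Of 9 measured stellate cell and fibroblast markers 5 were higher and 4 lower on the pM arrays, none passing by brightest probe set. The largest difference among the 9 was that of Tagln, whose brightest probe set passed without the 10 pM array (-3.06 ± 0.19, limma adjusted p = 0.0027) and whose other probe set passed with and without it. The 9 markers had a mean level of 5.53 to 5.92 on the pM arrays and 5.81 to 6.30 on the baseline arrays. The collagen gene Col1a1 stood between 3.58 and 3.97 on the pM arrays and between 3.55 and 3.87 at baseline, near the median of all values. Whether such cells have a part in these decreases was not tested.

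Other genes that fell were Sncg, Orai1, Slc37a4 and the peptide transporter Slc15a1. Sncg had 6.16 at 10 pM and 5.04 and 5.71 at 100 pM, against 6.25 and 7.55 at 0.01 pM and 6.18 and 7.61 with vehicle, and fell by 1.46 ± 0.21 (limma adjusted p = 0.0419). In pools 1 and 2 Sncg had 5.18 and 6.81 with 1 pM and 6.56 and 6.06 with 10 nM. The 10 nM value of pool 1 lay above the baseline values of that pool. Slc37a4, which carries glucose-6-phosphate into the endoplasmic reticulum, had 6.04 at 10 pM and 5.41 and 6.29 at 100 pM, against 6.68 and 7.35 at 0.01 pM and 6.80 and 7.26 with vehicle. Slc37a4 fell by 1.22 ± 0.18 (limma adjusted p = 0.0458), as its other probe set did by 1.39 ± 0.21, and it was the 1 of 13 measured glucose handling genes that did. Orai1 had 4.77 at 10 pM and 2.62 and 4.95 at 100 pM, against 4.63 and 6.03 at 0.01 pM and 4.26 and 5.87 with vehicle. Orai1 fell by 1.38 ± 0.19 (limma adjusted p = 0.0411), with the value of the 100 pM array of pool 1 far below the others. In pools 1 and 2 Orai1 had 3.97 and 5.11 with 1 pM and 4.23 and 5.26 with 10 nM. Without the 10 pM array Sncg, Orai1 and Slc37a4 gave adjusted p of 0.0566, 0.0668 and 0.0802, with differences of -1.52, -1.41 and -1.17. Slc15a1 fell by 0.78 ± 0.10 on 1 probe set (limma adjusted p = 0.0385), which did not pass without the 10 pM array either. Its pM values, 3.56 to 3.83, stood near the median of all values, 3.71.

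**Figure D3:**
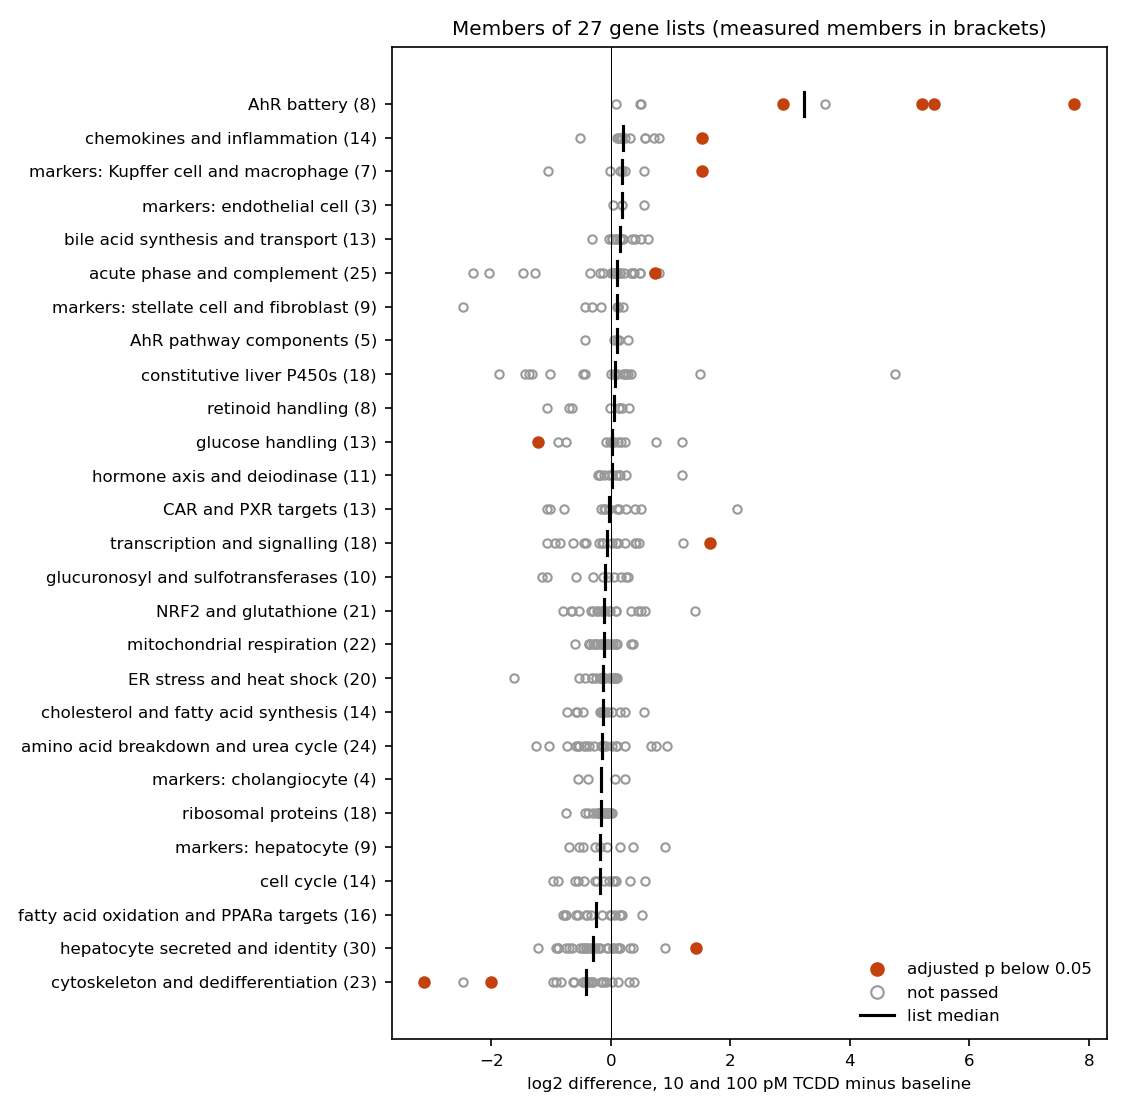
Log2 difference of each measured member of 27 gene lists (x axis, 10 and 100 pM TCDD minus baseline), with 1 row per list, filled points for members with an adjusted p below 0.05 and a bar at the list median. The AhR battery lies furthest to the right with a median of 3.23 and the cytoskeleton list furthest to the left with -0.41.

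The remaining lists held few genes that passed, as the plot of the lists shows. Among 18 constitutive liver P450s none passed, though Cyp2a1, a steroid hydroxylase, differed by 4.75 ± 0.86 (limma adjusted p = 0.09) and Cyp2e1, which oxidises ethanol, by -1.32 ± 0.22 (adjusted p = 0.0671). Cyp2a1 had 6.85 at 10 pM and 8.98 and 9.45 at 100 pM, against 2.45 and 5.42 at 0.01 pM and 2.44 and 3.74 with vehicle. Its groups did not overlap, and without the 10 pM array it rose by 5.70 ± 0.56 (limma adjusted p = 0.0169). Among 21 NRF2 and glutathione genes, counted on probe sets with exactly 1 gene symbol, none passed. The manganese superoxide dismutase Sod2 came nearest at 1.41 ± 0.23 (limma adjusted p = 0.0671). Among 13 CAR and PXR targets none passed, with Cyp3a23-3a1 at 2.11 ± 0.41 (adjusted p = 0.106). Some members of these lists passed at 100 pM in the dose-wise fit given further on, Cyp3a23-3a1 among them.

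Of 25 measured acute phase and complement genes 1 rose, Lcn2, and 0 fell. In that list the protease inhibitors A2m and Serpina3c differed by -2.31 ± 0.55 and -1.47 ± 0.28, and fibrinogen gamma (Fgg) by 0.49 ± 0.12. Of 30 measured hepatocyte secreted and identity genes 1 rose, Pon1, and apolipoprotein B (Apob) differed by 0.91 ± 0.18 without passing. Of 18 transcription and signalling genes 1 rose, Pde4b. The signalling repressor Tsc22d1 differed by -1.07 ± 0.23 there, and fell by 1.30 ± 0.17 without the 10 pM array (limma adjusted p = 0.0365). None passed among 10 glucuronosyl and sulfotransferases (median -0.09), 13 bile acid genes (0.15), 14 cholesterol and fatty acid synthesis genes (-0.13) and 16 fatty acid oxidation genes (-0.24). Another 3 genes of the glucuronosyl and sulfotransferase list stand only on probe sets shared by several genes. They are not in that count, which says nothing of their response. None passed among 24 amino acid and urea cycle genes (median -0.15), 8 retinoid genes (0.06), 11 hormone axis genes (0.02) and 14 cell cycle genes (-0.18). None passed among 20 ER stress and heat shock genes (median -0.13), 18 ribosomal proteins (-0.17) and 22 mitochondrial respiration genes (-0.11). By brightest probe set, no hepatocyte, endothelial, stellate or cholangiocyte marker passed, the stellate marker Tagln falling on its other probe set, and the 1 of 7 macrophage markers that rose was Ccl2.

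The dose-wise fit over all 14 TCDD and vehicle arrays gave each dose its own difference from the same 4 baseline arrays. At 10 pM, 83 of 4877 probe sets changed (1.7%), 38 higher (0.779%) and 45 lower (0.923%). At 100 pM, 50 changed (1.03%), 28 higher (0.574%) and 22 lower (0.451%). Cyp1a1 rose by 6.78 ± 0.72 at 10 pM and 8.30 ± 0.54 at 100 pM. Cyp1a2 rose by 4.98 ± 0.51 and 5.59 ± 0.38, Cyp1b1 by 4.30 ± 0.52 and 5.57 ± 0.39, and Nqo1 by 2.51 ± 0.51 and 3.08 ± 0.38 (limma adjusted p from 8.25e-05 to 0.046). The 10 pM differences rest on 1 array of pool 2, assumed to vary like the other doses. That array has the largest 3′ to 5′ differences of beta-actin and GAPDH. Myl9 fell by 1.47 ± 0.26 at 10 pM and 2.25 ± 0.20 at 100 pM. Aldh3a1 differed by 2.37 ± 0.65 at 10 pM (adjusted p = 0.127) and rose by 4.19 ± 0.49 at 100 pM. Acta1 differed by -1.94 ± 0.75 at 10 pM (adjusted p = 0.285) and fell by 3.66 ± 0.56 at 100 pM. Cyp2a1 differed by 3.05 ± 0.88 at 10 pM (adjusted p = 0.142) and rose by 5.70 ± 0.66 at 100 pM (adjusted p = 0.00326). A2m fell by 2.90 ± 0.35 and the ribonuclease Rnase4 by 2.32 ± 0.35 at 100 pM. Cyp3a23-3a1 and Apob rose at 100 pM by 2.32 ± 0.44 and 1.05 ± 0.19. The P450 Cyp2c6v1, Serpina3c and Tsc22d1 differed there by -1.56 ± 0.27, -1.67 ± 0.29 and -1.30 ± 0.23. For these genes the limma adjusted p ran from 0.0333 to 0.0438 at 100 pM, and none of them passed at 10 pM.

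Leaving out single arrays moved both counts. For 10 pM, omitting the vehicle array of pool 1 gave 53 calls and omitting the 0.01 pM array of pool 2 gave 33. For 100 pM, omitting the vehicle array of pool 1 or pool 2 gave 30 or 27, and omitting the 0.01 pM array of pool 1 or pool 2 gave 23 or 31. Omitting the 100 pM array of pool 1 gave 16 and omitting that of pool 2 gave 501, the dose then resting on 1 array.

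**Figure D4:**
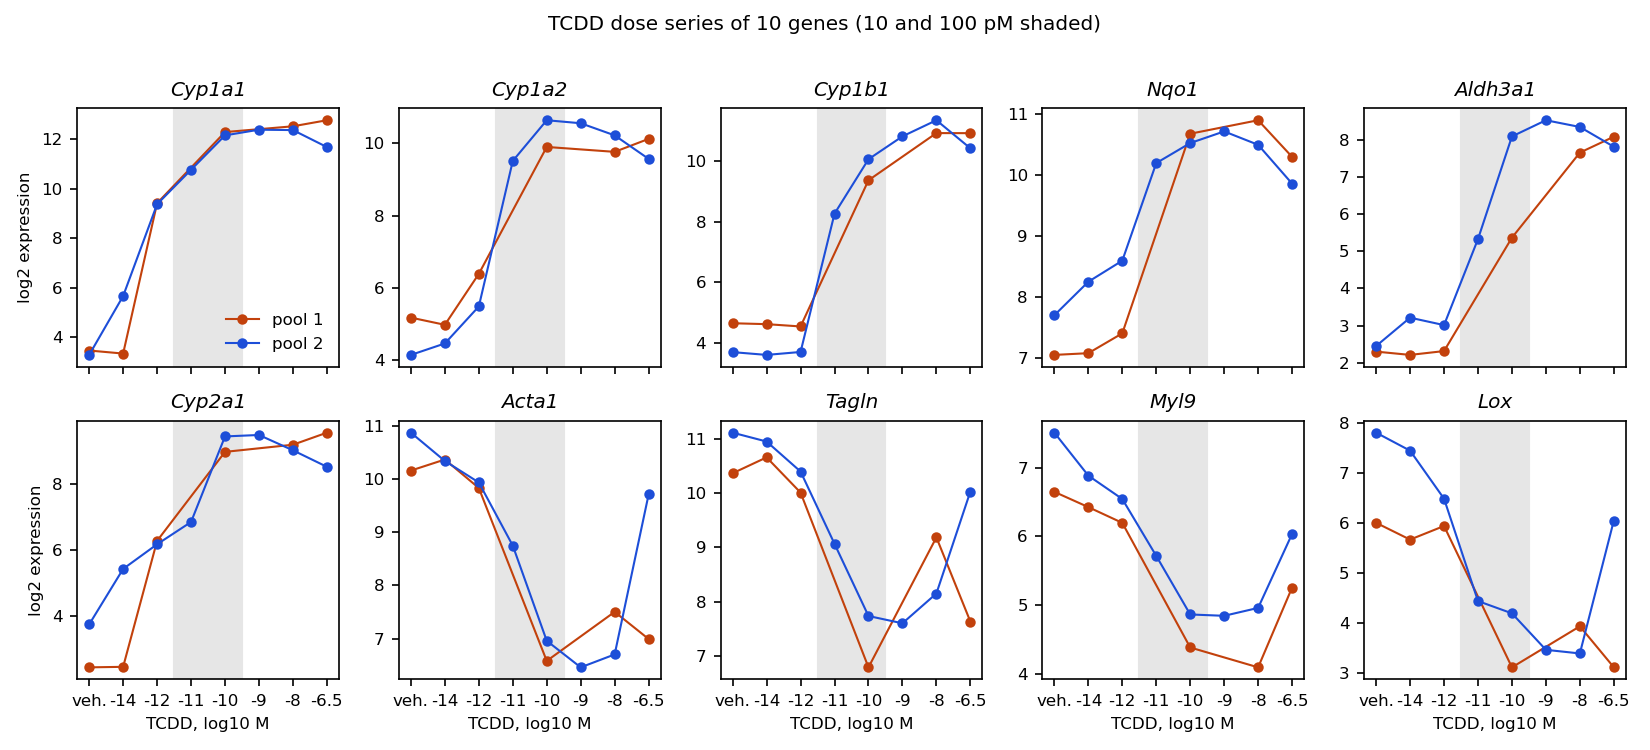
Log2 expression (y axis) of 10 genes over the TCDD series (x axis, vehicle and log10 M), with pool 1 in orange, pool 2 in blue and the 10 and 100 pM doses shaded. The AhR battery genes and Cyp2a1 climb within or before the shaded doses, and the contractile genes and Lox drop there. On the 316 nM array of pool 2 Acta1, Tagln, Myl9 and Lox stand higher again, with Acta1 at 6.96 with 100 pM and 9.71 with 316 nM.

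Compared with each other, the doses differed on 9 of 4877 probe sets (0.185%), 5 higher (0.103%) and 4 lower (0.082%) at 10 pM. None of these were AhR battery genes, Acta1 or Myl9. The interval of the difference, 10 minus 100 pM, ran from -3.29 to 0.25 for Cyp1a1, from -1.85 to 0.64 for Cyp1a2, from -1.81 to 0.67 for Nqo1 and from -0.13 to 3.57 for Acta1 (95%). These intervals include 0 and also differences of several-fold. For Cyp1b1 the interval ran from -2.53 to -0.0005, with an adjusted p of 0.39. Its other tested probe sets ran from -2.84 to -0.78 and from -3.81 to -1.5 (limma adjusted p = 0.139 and 0.0701). The interval was from -3.42 to -0.22 for Aldh3a1 and from 0.13 to 1.42 for Myl9. On the other Cyp1a2 probe sets it ran from -3.12 to -0.27 and from -2.89 to 0.13. A Cyp1b1 probe set below the filter had 2.48 at 10 pM, against 7.35 and 5.7 at 100 pM. On the named genes that were called, the 10 pM array lay beyond the other TCDD and vehicle arrays. Bend3, a transcriptional repressor, had 5.40 at 10 pM, against 4.22 and 4.18 at 100 pM and 3.98 to 4.22 on the other TCDD and vehicle arrays. Calreticulin (Calr) had 8.94 at 10 pM, against 10.81 and 10.87 at 100 pM, and parathymosin (Ptms) had 7.18, against 8.92 and 9.01. Calr was lower at 10 than at 100 pM by 1.88 ± 0.26 on the log2 scale, and Ptms by 1.78 ± 0.26 (limma adjusted p = 0.0482 for both). Cd53, a leukocyte tetraspanin, and the scaffold protein Mpdz differed by 0.81 ± 0.10 and 0.71 ± 0.11.

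Among the 10 pM calls, the 10 pM array was also lowest of the TCDD and vehicle arrays for Ctsd and Pcnx3. The lysosomal protease Ctsd had 6.61 at 10 pM, against 7.44 and 8.58 at 100 pM and 7.18 to 8.95 on the baseline arrays. The membrane protein Pcnx3 had 3.22 at 10 pM, against 5.81 and 5.54 at 100 pM and 4.99 to 5.67 at baseline. Both fell at 10 pM, by 2.11 ± 0.37 and 2.06 ± 0.36 (limma adjusted p = 0.027 and 0.0279), and differed by -0.22 and 0.28 at 100 pM. The matrix protease Mmp14 and the sulfotransferase Hs6st1 fell by 3.32 ± 0.48 and 2.66 ± 0.48 at 10 pM. At 100 pM they differed by -1.27 ± 0.36 and -1.09 ± 0.36 without passing (limma adjusted p = 0.176 and 0.238). Both were also low on the 100 pM array of pool 1, where Mmp14 had 4.60, against 6.76 at 0.01 pM and 6.55 with vehicle in that pool, and Hs6st1 had 4.59, against 6.74 at 0.01 pM and 5.76 with vehicle. Beside these values stand the actin and GAPDH end differences of the same array, the highest of the 26. The dose and that array cannot be told apart. The 9 calls between the doses became 0 when the 100 pM array of pool 1 was omitted and 27 when that of pool 2 was.

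Against 1 pM, 10 of 4877 probe sets changed (0.205%), 8 higher (0.164%) and 2 lower (0.041%) at 10 and 100 pM. Cyp1b1 had 4.55 and 3.71 at 1 pM in pools 1 and 2, beside 4.66 and 3.70 with vehicle, and was 5.17 ± 0.41 higher at 10 and 100 pM (limma adjusted p = 0.000883). Cyp1a2 was 4.14 ± 0.40 higher and Aldh3a1 3.47 ± 0.52 higher (adjusted p = 0.00282 and 0.0388). Cyp1a1, already at 9.41 and 9.37 with 1 pM, differed by 2.33 ± 0.57 and did not pass (adjusted p = 0.174). Myl9 and the sulfate transporter Slc26a1 were lower than at 1 pM by 1.49 ± 0.21 and 1.46 ± 0.22 on the log2 scale (adjusted p = 0.0285 and 0.0381). Acta1 differed by -2.54 ± 0.60 without passing. Omitting the 1 pM array of pool 1 or pool 2 gave 6 or 3 calls, and omitting the 100 pM array of pool 2 gave 101.

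Against the highest TCDD doses, 10 and 316 nM, none of 4877 probe sets passed in limma (0%). The smallest adjusted p was 0.0931, and 1073 had an unadjusted p below 0.05. Cyp1b1 and Aldh3a1 differed by -1.61 ± 0.34 and -1.85 ± 0.43, with 95% intervals from -2.39 to -0.84 and from -2.83 to -0.88. Cyp1a1 differed by -0.62 ± 0.48, Cyp1a2 by 0.15 ± 0.34, Nqo1 by 0.02 ± 0.34 and Acta1 by -0.38 ± 0.50. In pool 2 Acta1 had 6.96 with 100 pM, 6.46 with 1 nM, 6.70 with 10 nM and 9.71 with 316 nM. On that 316 nM array Tagln, Lox and Myl9 had 10.03, 6.04 and 6.04, against 7.73, 4.19 and 4.86 with 100 pM in pool 2. The Tagln and Lox values are those of the probe sets that fell. In pool 1 Acta1 had 6.58 with 100 pM and 6.99 with 316 nM. Omitting the 100 pM array of pool 2 gave 408 calls, and omitting each of the other 6 arrays of this comparison gave 0. Between 0.01 pM and vehicle, the parts of the baseline, none of 4877 passed (0%), 56 having an unadjusted p below 0.05. Omitting the vehicle array of pool 2 gave 2.

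At the same doses PCB 126, a coplanar biphenyl that also binds AhR, was tested on 3 arrays laid out alike, and 69 of 4877 probe sets differed between the compounds (1.41%), 26 higher (0.533%) and 43 lower (0.882%) with TCDD. Cyp1b1 was 5.28 ± 0.81, Aldh3a1 3.73 ± 0.66 and Nqo1 1.84 ± 0.35 higher with TCDD than with PCB 126, and Acta1 was lower by 2.8 ± 0.47 on the log2 scale (limma adjusted p = 0.00844, 0.0115, 0.0151 and 0.0107). Omitting the 100 pM TCDD array of pool 1 or pool 2 gave 29 or 683 calls, and omitting the 10 pM one gave 27. Omitting the 100 pM PCB 126 array of pool 1 or pool 2 gave 9 or 2, and omitting the 10 pM one gave 6.

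The pools responded differently on 13 of 4877 probe sets (0.267%), 6 with a higher (0.123%) and 7 with a lower (0.144%) response in pool 2 than in pool 1. The response of pool 1 rests on the 100 pM array alone, so pool and array cannot be told apart. Rfc4, a subunit of the clamp loader of DNA replication, had 10.01 on that array, against 3.41 to 4.18 on the other TCDD and vehicle arrays. The Cyp1 genes, Nqo1 and Acta1 moved the same way in both pools. Within pool 2 and pool 1, Cyp1a1 differed by 7.0 and 8.90, Cyp1a2 by 5.78 and 4.83, Cyp1b1 by 5.51 and 4.73, Nqo1 by 2.38 and 3.61 and Acta1 by -2.75 and -3.68. None of these passed within 1 pool, where the adjusted p ran from 0.0534 to 0.311. For these pool differences, omitting the vehicle array of pool 1 or pool 2 left 2 or 1 calls, omitting the 0.01 pM array of pool 1 or pool 2 left 4 or 1, and omitting the 10 pM array left 7.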

How the data were processed

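The deposited values are log2 expression values of 8799 probe sets on 26 arrays. The submitters' processing notes name GCRMA (2.8.0) and RMA, with no role given. No depth exists for arrays; their number limits the precision. All columns matched a sample (0 left over). Of 8740 probe sets that are not controls, the platform annotation gives 7006 exactly 1 gene symbol, 308 several and 1426 none; 6985 matched RefSeq by Entrez ID and 0 symbols changed. Members, lists and tests were chosen with earlier results of these data known.

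Probe sets above 3.71 on at least 3 of 7 arrays were fitted with limma 3.58.1 (lmFit, eBayes with trend and robust) in R 4.3.3, with the pool as a block, and p-values were adjusted by Benjamini-Hochberg over 4877 probe sets. The labels name the pool of rats each array came from, so arrays with the same pool number share animals; the 10 pM group has pool 2 only; among the 7 arrays the lowest correlation within a pool was 0.925 and the highest across pools 0.928. Single doses were fitted over 14 arrays. Scripts were tested on simulated data.

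A gene stands for its kept probe set with the highest mean. Named were the genes called in the comparison of 10 and 100 pM with baseline, up to 15 a direction, up to 5 a direction elsewhere, the measured AhR battery members and up to 4 per list. Alternatives changed the filter, scaling, variance model, block, arrays, baseline, an RNA quality covariate and the threshold.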

Additional observations from a re-analysis of the deposited data

Results flagged for a closer look

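The response to 10 and 100 pM TCDD differed between pools on 13 probe sets by the interaction term in limma (adjusted p below 0.05), and the genes among them that the naming rule reached had a large change on the single treated array of pool 1. The response in pool 2 minus that in pool 1 was -5.77 for Rfc4, 4.13 for the actin nucleation subunit Arpc4, 3.39 for the RNA helicase Ddx39b, 2.97 for the RNA-binding protein Ybx1, -2.05 for the P450 Cyp4f17 and -2.01 for the kinase Stk39, all on the log2 scale. In pool 2 the responses of these 6 genes lay between -0.08 and 0.20, and in pool 1 they were 5.85, -3.98, -3.19, -2.85, 1.97 and 2.17 in the same order of genes. The 100 pM array of pool 1 had a mean of 11.8 on its hybridisation controls, the highest of the 11 arrays of that pool, whose median was 10.7. Its part in these values was not tested.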

How the results depend on the processing

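For 10 and 100 pM against baseline, 30 probe sets were called. The count was 13 with no filter, 70 in a fit of 14 arrays, 167 in a fit of 26 arrays, 2 with vehicle alone as baseline and 0 with 0.01 pM alone. It was 1 in pool 2 alone, 0 in pool 1 alone, 46 with the actin covariate, 52 at an adjusted p below 0.1, and 0 to 39 without single arrays. After median centring it was 30, 20 higher and 10 lower. The replicate block mattered: with no replicate block (no pool term) the counts were 9 for this comparison, 4 for 10 pM, 18 for 100 pM, 0 between the doses, 6 against 1 pM and 6 against PCB 126. The fit of 26 arrays gave 192 for 10 pM, 118 for 100 pM, 84 between the doses, 37 against 1 pM and 30 against the highest doses. With no filter there were 33 between the doses, 2 against the highest doses and 153 between pools. Centring gave 0 between the doses and 16 against 1 pM, and eBayes without trend and robust gave 0 between the doses and 5 between pools. Without single arrays the counts ran from 33 to 65 (10 pM), 16 to 501 (100 pM), 0 to 27 (between doses), 3 to 101 (1 pM), 0 to 408 (highest doses), 0 to 2 (0.01 pM against vehicle), 2 to 683 (PCB 126) and 1 to 14 (pools). The cause was not tested. Over 19 alternatives Cyp1a1 stayed between 7.0 and 8.90, passing in 12, and Acta1 between -3.68 and -2.75, passing in 6. The signs turned for Hif1a (-0.0109 against 0.01 pM alone), Ugdh (-0.0491 in pool 1 alone) and Gsta1 (-0.0428 against 0.01 pM alone, -0.419 in pool 1 alone, and from -0.0616 to 0.416 without single arrays, below 0 without the vehicle array of pool 2 or the 10 pM array), none of which passed. A left-out array can leave a dose with 1 array, assumed to vary like the others. Signals near the median of all values limit what can be called.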

Other observations

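The baseline array at 0.01 pM of pool 2 stood above the vehicle array of the same pool on several of the genes that responded at 10 and 100 pM. Cyp1a1 had 5.66 at 0.01 pM and 3.28 with vehicle, Cyp2a1 5.42 and 3.74, Cyp3a23-3a1 7.27 and 5.69, Aldh3a1 3.21 and 2.45, and Nqo1 8.25 and 7.70. In pool 1 the values at 0.01 pM and with vehicle were 3.33 and 3.45 for Cyp1a1, 2.45 and 2.44 for Cyp2a1, 4.5 and 4.77 for Cyp3a23-3a1, 2.21 and 2.30 for Aldh3a1, and 7.08 and 7.05 for Nqo1. The difference in pool 2 rests on 1 array a group and has no replicate check. Without this array Cyp1a1 rose by 8.54 at 10 and 100 pM (limma adjusted p = 0.00531).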
